A study of Caenorhabditis elegans with 6 samples.

Results

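The genes described here are the MATH and BTB domain genes of Caenorhabditis elegans, taken as the rows of the deposited count table whose name is bath, math or btb followed by a number. The rule found 114 of the 45836 gene rows, with 44 bath, 49 math and 21 btb genes, and used no measured value. By their naming, bath genes code for proteins with both a MATH and a BTB domain, math genes for MATH proteins and btb genes for BTB proteins. The domains themselves were not checked here.

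The BTB domain binds the cullin CUL-3, the scaffold of a ubiquitin ligase, while a MATH domain on the same protein can hold the substrate. A BATH protein can thus act as a whole adaptor that brings a target to the ligase. In nematodes these families have grown by local gene duplication, and most copies have no known target. MEL-26, a BATH protein that carries another name, is the best studied worm adaptor, and it removes the microtubule-severing katanin MEI-1 after meiosis.

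RNA was taken from whole L1 larvae that had hatched overnight in buffer without food. The 3 mutant libraries came from strain BCN6101, which carries div-1(or148) and the transgene pdaf-21::mCherry, and the 3 wild-type libraries from strain BCN1050, which carries the same transgene in an N2 background. DIV-1 belongs to the enzyme that primes DNA replication, polymerase alpha-primase, and or148 is a temperature-sensitive allele. By the labels the libraries are biological replicates, with no more said of their origin, so p-values measure the spread between these libraries only.

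Libraries held 25051167 to 27632878 counts each. div-1 stood at 35.1 ± 8.45 CPM (counts per 1e6 scaled gene counts, mean ± SD, n = 3) in mutant larvae and 32.7 ± 9.59 in the wild type, which does not check a point allele. The small RNA scaffold gene mut-16 was at 6.52 ± 1.84 CPM in the mutant against 51.9 ± 1.46 in the wild type, -2.99 on the log2 scale (adjusted p = 0.002 by edgeR), so the allele and this loss cannot be told apart. Markers of muscle, gut, epidermis, neurons and germline were present in all libraries, with summed body wall muscle markers at 8148 to 11640 CPM in mutant larvae and 8980 to 12160 in the wild type. Adult yolk and sperm genes summed to 3.26 to 4.49 CPM in mutant larvae and 1.93 to 2.75 in the wild type. In bulk RNA, fewer cells of a type and less RNA per cell cannot be told apart.

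Most of the family sits in one part of the genome. In the WBcel235 annotation 113 members were found, all but bath-43, and 97 of these lie on chromosome II, 94 of them in its outer arms. Of the math genes 46 of 49 are on this chromosome, of the bath genes 33 and of the btb genes 18. Runs of at least 3 members, with no more than 5 other genes between neighbours, hold 82 members. The longest run has 45 members among 66 consecutive genes, 29 of them math, 14 bath and 2 btb. 24 members are annotated as pseudogenes, 12 math, 7 bath and 5 btb.

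A few bath and math genes carried most of the transcripts of their subfamilies. Among the 113 members with an annotated exon length, which leaves out bath-43, math-33 had the highest level per length at 61.1 CPM per kb, averaged over the 6 libraries, and it ranged from 59.0 to 62.9. math-33 encodes the worm counterpart of the deubiquitinase USP7, so it removes ubiquitin and is no CUL-3 adaptor. bath-40 followed at 55.4 CPM per kb, and its range of 52.0 to 61.1 overlapped that of math-33. The next bath genes were bath-44 at 46.4, bath-38 at 45.2 and bath-42 at 44.2 CPM per kb, and the ranges of these 3 over the libraries overlapped.

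In CPM not divided by length, bath-43 was the highest bath row at 105.9, and with bath-40, bath-44, bath-42 and bath-38 it made up 71.0% of all bath CPM. math-33 alone was 38.1% of the math CPM, and 51.8% together with math-41. The highest btb genes were below these levels. btb-16 stood at 14.9 CPM per kb, followed by btb-6 at 8.27 and btb-17 at 8.05, and only btb-16 of the 21 reached a mean of 10 CPM, against 11 bath and 13 math genes.

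**Figure D1:**
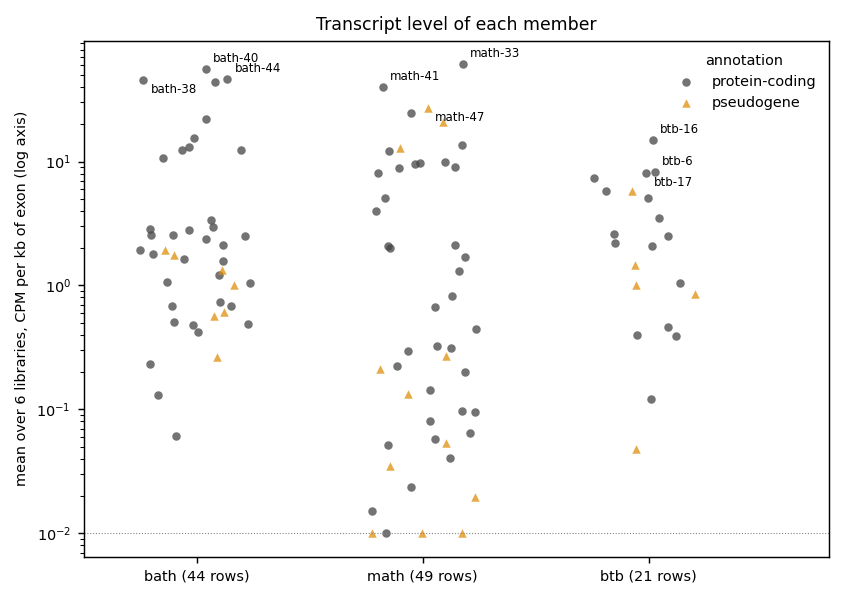
Mean level of each matched member over the 6 libraries, in CPM per kb of exon on a log axis, by subfamily. Circles are annotated protein-coding genes and triangles pseudogenes, values under 0.01 are drawn at the dotted line, and bath-43 is absent because it matched no annotated length. The math genes span from no counts to 61.1 CPM per kb, and the highest btb gene is at 14.9.

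The subfamilies also differed in how many members were near silent. Of the 44 bath genes 40 passed the expression filter, as did 17 of 21 btb genes, but only 26 of 49 math genes. The median of the mean level over all listed genes was 1.85 CPM for bath, 2.20 for btb and 0.393 for math. Both members without a single count in any library were math genes, math-6 and math-11, the second annotated as a pseudogene. No test of this difference was made, since family members are not replicates. Near silent here means few or no counts. Inserts were short, so counts of near-identical copies are uncertain, and which rows share reads was not examined.

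Many of the near-silent math genes lie together at one end of the longest run. From math-15 to math-25, 14 members follow each other, and math-8 alone passed the filter. This stretch was chosen after its values were seen. All 14 together held 144 counts in mutant larvae and 61 in wild-type larvae. Levels were higher at some members beyond this stretch. math-24 was at 13.8, 20.98 and 20.4 CPM in mutant larvae and at 13.7, 16.5 and 15.3 in the wild type. math-20 stood at 10.5, 13.4 and 12.6 CPM in mutant larvae and at 13.7, 12.8 and 12.9 in the wild type. math-47 was the highest of the run, with a mean of 26.1 ± 6.30 CPM in mutant larvae and 24.8 ± 5.70 in the wild type (SD, n = 3), although the annotation calls it a pseudogene.

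**Figure D2:**
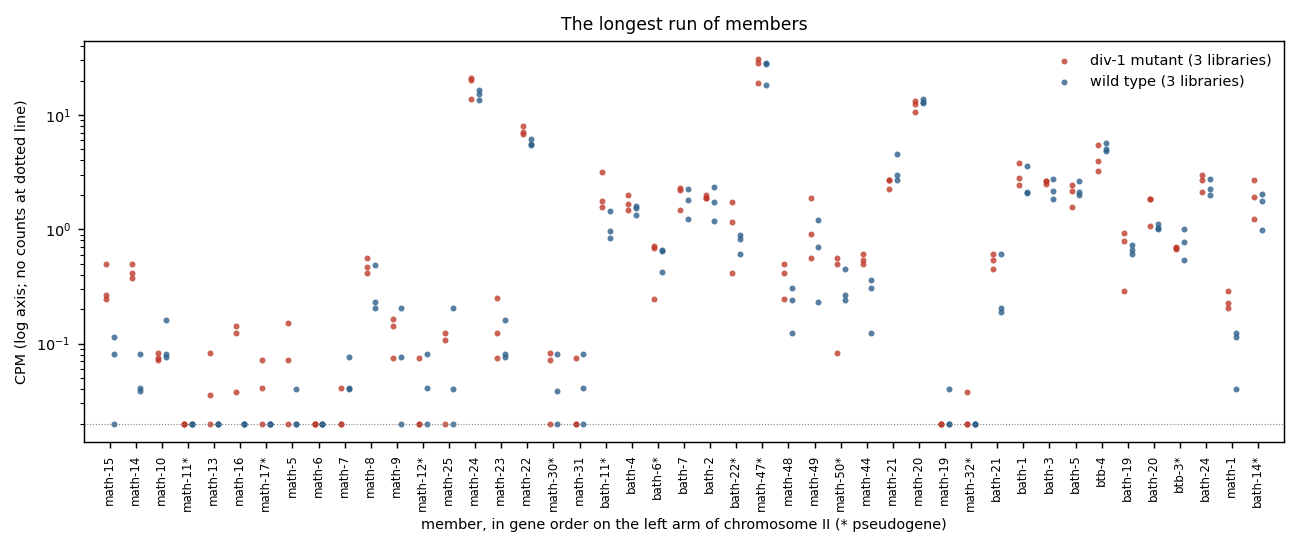
CPM of the 45 members of the longest run on chromosome II, in gene order, on a log axis. Each point is a library, red for the div-1 mutant and blue for the wild type, libraries without counts lie on the dotted line, and a star marks a pseudogene. The 14 members at the left end have few or no counts, and math-24, math-20 and math-47 stand far above their neighbours in both groups.

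Whether any member differs between the mutant and the wild type was tested in one edgeR fit over all 16289 genes that passed the filter. No member was called: 0 of 83 tested had an adjusted p under 0.05, where 0.896% of all tested genes did and 0.884% did so with a higher mutant level. DESeq2 called 1 member, btb-13, and 3.42% of all genes. At an unadjusted p under 0.05, 6 members were higher in the mutant, 7.23% of those tested against 8.26% of all genes, and 1 was lower, 1.20% against 2.44%. The groups did not overlap, with the mutant higher, for 8 members, 9.64% against 10.2% of all genes, and with the mutant lower for 4, 4.82% against 7.73%. These shares were near the background or below it.

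Log2 fold changes were above 0 for 24 of 40 tested bath genes, 17 of 26 math genes and 8 of 17 btb genes, and in 46.0% of all tested genes. Their median was 0.09 for bath, 0.11 for math and -0.12 for btb, beside -0.03 for all genes. With each library left out in turn the bath median was lowest at 0.04, when div-1 mutant replicate 1 was removed, and highest at 0.18, when div-1 mutant replicate 2 was. The math median was lowest at 0.06, when div-1 mutant replicate 3 was removed, and highest at 0.19, when wild-type replicate 1 was. For btb the sign changed, with 0.01 when div-1 mutant replicate 1 was left out and 0.06 when wild-type replicate 3 was. A member can pass the filter through 1 group alone, so these figures describe the members tested and not the families. Only 53 of the 83 intervals lay within a 2-fold change in either direction, 27 of 40 for bath, 19 of 26 for math and 7 of 17 for btb. For the other 30 members a change of 2-fold or more lay within the 95% interval.

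**Figure D3:**
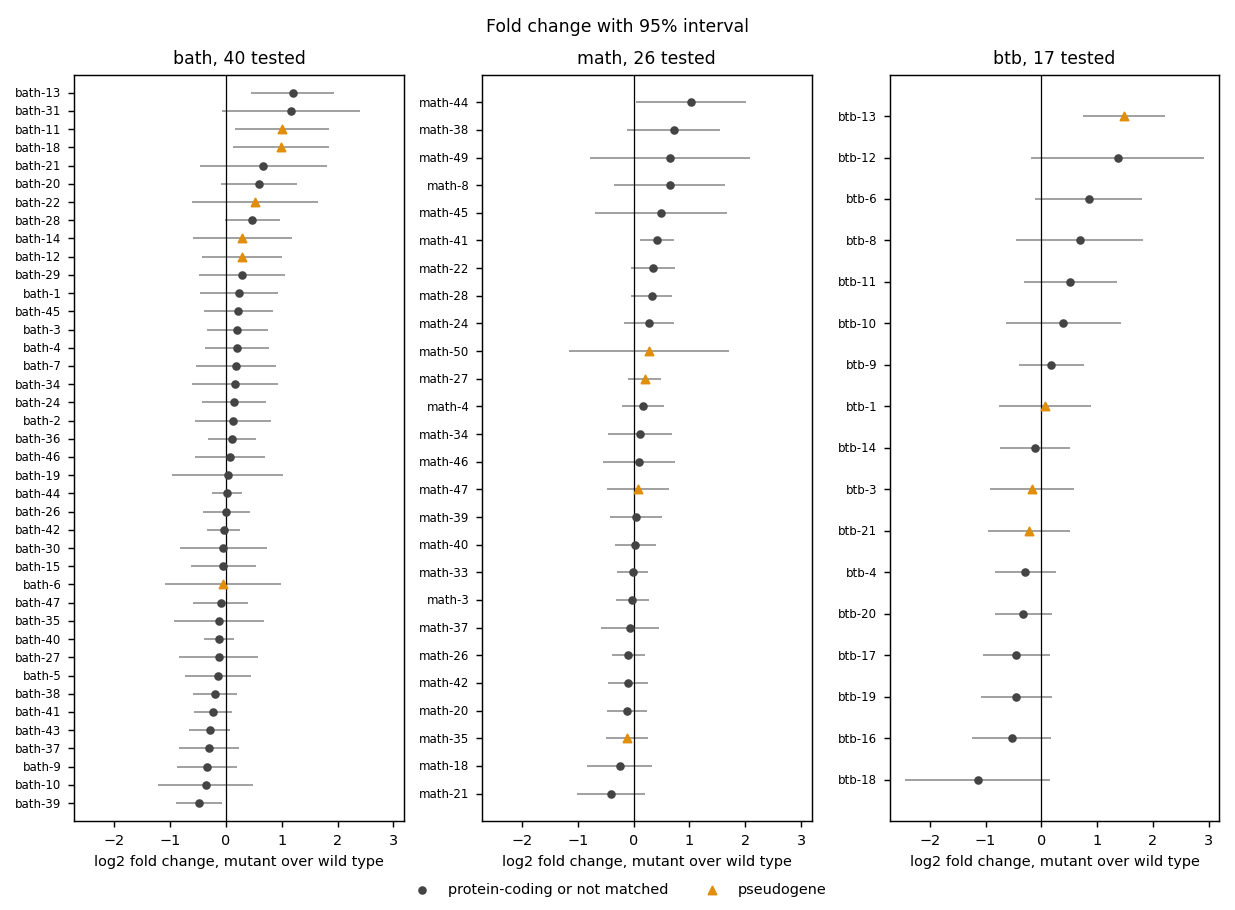
Log2 fold change of each tested member, mutant over wild type, with its 95% interval from the edgeR fit, for the 40 bath, 26 math and 17 btb genes. Triangles are pseudogenes. Estimates run from -1.14 for btb-18 to 1.48 for btb-13, and none passed the adjusted threshold.

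Several abundant bath genes were at like levels in both groups. bath-44 stood at 79.5, 84.0 and 80.5 CPM in mutant larvae and at 79.5, 84.7 and 76.3 in the wild type. Its log2 fold change was 0.02, with a 95% interval of -0.25 to 0.29. bath-42 was at 77.4, 74.3 and 70.8 CPM in mutant larvae and at 68.1, 82.7 and 77.6 in wild-type larvae, with an interval of -0.34 to 0.26. Neither group stood apart from the other for these genes. bath-40 was lower in every mutant library, at 79.3, 79.1 and 77.4 CPM against 83.3, 83.9 and 90.8, or -0.13 on the log2 scale (adjusted p = 0.744 by edgeR). bath-38, whose exons overlap those of F52H3.11 on its strand, was at 58.8, 78.0 and 69.0 CPM against 65.0, 84.5 and 86.8, or -0.20 (adjusted p = 0.728 by edgeR). bath-43 was at 87.5, 104 and 94.2 CPM against 94.9, 128 and 127, or -0.29 (adjusted p = 0.579 by edgeR), and both had overlapping groups. bath-15, a far less abundant gene, was at 3.28 ± 0.788 CPM in mutant larvae and 3.39 ± 0.450 in the wild type, and its interval ran from -0.63 to 0.53.

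The 4 bath genes with the highest fold changes, of those with a mean of at least 1 CPM, were all on chromosome II. bath-13 was at 2.43, 1.28 and 1.58 CPM in mutant larvae and at 0.820, 0.687 and 0.806 in the wild type. Its groups did not overlap, but the mutant libraries differed among themselves by more than the wild-type ones, and the log2 fold change of 1.20, whose SE was 0.32, had an edgeR adjusted p of 0.185. Without div-1 mutant replicate 1 it was 0.89. bath-11, annotated as a pseudogene, was at 3.15, 1.57 and 1.77 CPM in mutant larvae and at 1.44, 0.840 and 0.968 in the wild type, or 1.00 on the log2 scale (adjusted p = 0.366 by edgeR). Without div-1 mutant replicate 1 it was 0.63. bath-20 and bath-28 had log2 fold changes of 0.60 and 0.48 (adjusted p = 0.540 and 0.476 by edgeR). The exons of bath-28 overlap those of another gene on its strand.

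At the other end bath-39, on chromosome V, was at 9.45, 14.3 and 12.5 CPM in mutant larvae and at 17.5, 17.1 and 15.8 in the wild type. No mutant library reached the lowest wild-type one, and the log2 fold change was -0.48 with an SE of 0.18 (adjusted p = 0.388 by edgeR). Its exons overlap those of F25H9.2 on the same strand, so its reads may be shared. bath-10, bath-9 and bath-37 had log2 fold changes of -0.36, -0.34 and -0.30 (adjusted p = 0.777, 0.659 and 0.697 by edgeR), with overlapping groups, and bath-37 was at -0.16 without div-1 mutant replicate 1.

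Of the math genes, math-33 was the steadiest. It stood at 266, 254 and 249 CPM in mutant larvae and at 254, 262 and 263 in wild-type larvae, with a log2 fold change of -0.02 and a 95% interval of -0.31 to 0.27. Over its 6 libraries the highest value was 1.07 times the lowest, the smallest such ratio of the 67 members with a mean of at least 1 CPM. The median of this ratio was 1.67 for these members and 1.64 for all genes at that level. A gene on the opposite strand, scb-1, overlaps its exons, and the sources used here do not say whether counting used strand.

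math-41 differed more, and it is the most abundant member with no overlap between groups and a higher mutant level. It was at 111, 99.3 and 108 CPM in mutant larvae and at 79.0, 72.0 and 87.2 in the wild type. The log2 fold change was 0.42 with an SE of 0.13 (adjusted p = 0.271 by edgeR), and it lay between 0.35 and 0.49 when each library was left out in turn. Its neighbours math-40 and math-39 had log2 fold changes of 0.03 and 0.04. math-38, math-45 and math-22 had values of 0.72, 0.48 and 0.35 (adjusted p = 0.544, 0.782 and 0.529 by edgeR), and only math-22 was without overlap, at 6.87, 7.05 and 8.06 CPM against 5.58, 6.15 and 5.48. Removing div-1 mutant replicate 3 put math-45 at 0.17, and removing div-1 mutant replicate 1 put it at 0.89. math-38 came to 0.46 without div-1 mutant replicate 2. The lowest were math-21 at -0.41, math-18 at -0.25, math-35 at -0.11 and math-20 at -0.11, with edgeR adjusted p from 0.635 to 0.849. These values also moved with single libraries. math-21 was at -0.15 without wild-type replicate 3, and with div-1 mutant replicate 1 left out math-18 was at -0.15, math-20 at -0.02 and math-35 at 0.03. Leaving out div-1 mutant replicate 3 put math-18 at -0.47.

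btb-13 had the largest fold change of any tested member. This pseudogene, which lies outside the runs, was at 1.90, 1.40 and 1.58 CPM in the mutant libraries. In the wild type it was at 0.410, 0.763 and 0.564, well apart from them. The log2 fold change was 1.48 with an SE of 0.32 and a 95% interval of 0.74 to 2.22 (adjusted p = 0.0906 by edgeR). With each library left out in turn, the log2 fold change was lowest at 1.28, without wild-type replicate 1. The edgeR adjusted p then lay between 0.151 and 0.307, and under DESeq2 the adjusted p was 0.0109.

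The values of other btb genes moved with single libraries. btb-6 was at 16.03, 9.23 and 8.22 CPM in mutant larvae and at 2.87, 7.37 and 8.38 in the wild type, and its neighbour btb-8 at 4.79, 3.09 and 3.13 against 0.697, 3.02 and 3.10. Wild-type replicate 1 was the lowest library for both, and for btb-10, btb-11 and btb-12 too. The log2 fold change of btb-6 was 0.85 and that of btb-8 0.69 (adjusted p = 0.533 and 0.673 by edgeR). Without wild-type replicate 1 they were 0.50 and 0.26, and without div-1 mutant replicate 1, the highest library for both, 0.49 and 0.45. For btb-11 the value went from 0.51 (adjusted p = 0.668 by edgeR) to 0.17 without wild-type replicate 1.

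In the neighbouring genes btb-16, btb-17 and btb-18 div-1 mutant replicate 1 was the low one. btb-16 was at 9.48, 22.2 and 15.7 CPM in mutant larvae and at 21.9, 28.1 and 18.5 in the wild type, or -0.53 on the log2 scale (adjusted p = 0.593 by edgeR). btb-17 was at 4.72, 8.78 and 9.01 CPM against 9.96, 11.3 and 9.43, or -0.45 (adjusted p = 0.599 by edgeR). btb-18 was at 0.215, 1.03 and 0.867 CPM against 2.38, 1.34 and 0.927, or -1.14 (adjusted p = 0.535 by edgeR). Without that library the 3 values were -0.27, -0.21 and -0.70, and btb-18 was also at -0.70 without wild-type replicate 1. Of the 3 genes only btb-17 had groups that did not overlap. The exons of btb-16 and btb-18 overlap on the same strand, so these rows are not independent. btb-19 had -0.45 (adjusted p = 0.614 by edgeR), or -0.27 with wild-type replicate 3 left out.

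The same held for a pair of bath genes. bath-10 was at 17.2, 9.69 and 8.93 CPM in mutant larvae and at 10.1, 12.5 and 23.4 in the wild type, and bath-9 beside it at 23.8, 22.9 and 18.6 against 21.3, 23.5 and 37.7. Wild-type replicate 3 was the highest for both, and without it their log2 fold changes were 0.07 and -0.05. The epidermal collagen gene dpy-7 was also highest in that library, at 139, 65.3 and 68.5 CPM against 96.4, 87.7 and 204. The other listed epidermis markers, elt-3 and nhr-23, were not. elt-3 was at 70.5, 80.0 and 76.2 CPM in mutant larvae and at 85.69, 85.55 and 78.86 in the wild type. nhr-23 was at 43.98, 21.8 and 26.8 CPM against 28.7, 24.8 and 32.3. A part of the epidermis in the bath-9 and bath-10 values was not tested. Over all tested genes wild-type replicate 3 and div-1 mutant replicate 1 departed from their group means together, with a correlation of 0.622 across genes, which are not independent replicates. Among the 67 members with a mean of at least 1 CPM, div-1 mutant replicate 1 was the highest library for 16 and the lowest for 24. For the btb genes it was the highest for 5 of 14 and the lowest for 8.

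**Figure D4:**
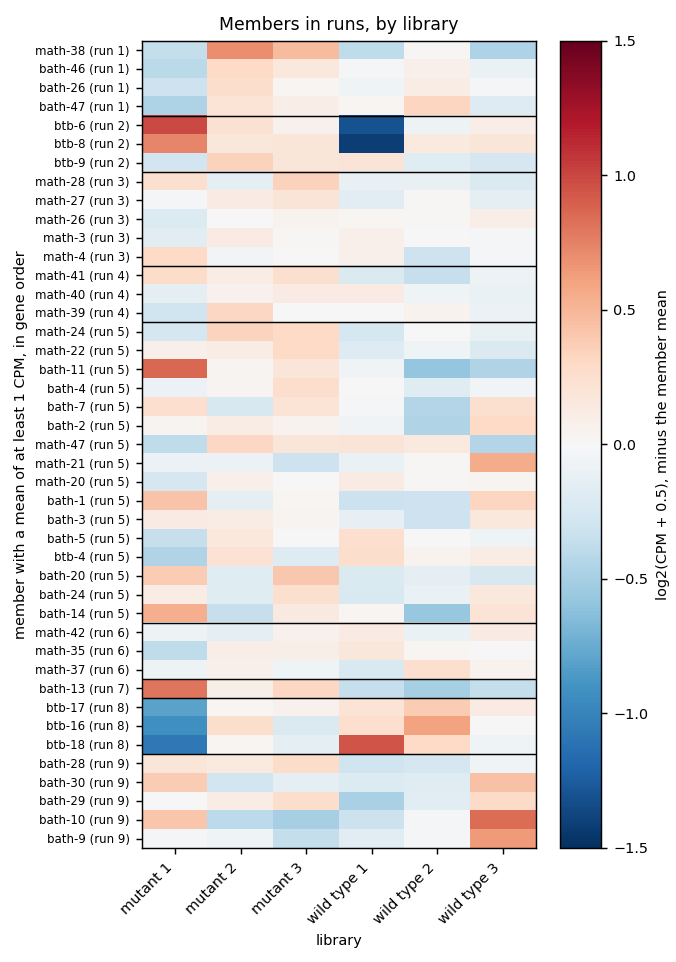
Log2(CPM + 0.5) of each member in a run with a mean of at least 1 CPM, minus its mean over the 6 libraries, by library and in gene order, where lines part the runs. btb-6 and btb-8 are low in wild-type replicate 1, btb-16, btb-17 and btb-18 in mutant replicate 1, and bath-9 and bath-10 are high in wild-type replicate 3.

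Summed over all members the family was at a like level in both groups. The sum was 1301, 1374 and 1335 CPM in mutant larvae and 1288, 1375 and 1393 in the wild type. The bath sum was 548, 588 and 553 CPM in the mutant against 553, 637 and 653. The math sum was 685, 700 and 707 CPM against 660, 649 and 665, so that every mutant library was above every wild-type one. Without math-33 and math-41 the math sums overlapped, at 308, 347 and 350 CPM against 326, 315 and 315. The btb sum was 68.2, 86.3 and 74.4 CPM against 74.99, 89.7 and 74.5. These sums are dominated by the few abundant genes, and no test was made on them.

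The 31 members that did not pass the filter had few counts or none. Their sum was 5.15, 4.82 and 3.995 CPM in the mutant libraries and 1.97, 2.52 and 2.38 in wild-type larvae, a ratio of 2.04. 22 of the 31 were higher in the mutant and 7 lower. All gene rows below the filter with a count summed to 942, 771 and 904 CPM in mutant larvae and 1125, 621 and 651 in the wild type. The ratio was 1.09, but the groups overlapped only through the high sum of wild-type replicate 1. Of these rows 60.3% were higher in the mutant, against 75.9% of the 29 such members. Among all annotated pseudogenes below the filter the ratio was 1.52, with 65.0% higher in the mutant. Among such genes on the arms of chromosome II it was 1.46, with 64.2% higher. The members were not tested against these sets, and which of their rows share reads with a near-identical copy was not examined.

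Single near-silent genes show how few counts this rests on. math-14 had 14, 10 and 10 counts in the mutant libraries and 1, 1 and 2 in wild-type larvae, or 8.14 times as many (95% interval 2.90 to 31.6, counting error only). With no filter on low counts it was called (log2 fold change 2.89, edgeR adjusted p = 0.0459), as were 1.14% of all genes. In 5 fits that left out a library it passed the filter and was tested, and its edgeR adjusted p was then 0.111 to 0.197. Its neighbour math-15 had 27 counts over the mutant and 5 over the wild type, and the pseudogene math-29 had 24 and 3, ratios of 5.17 and 7.66 with intervals of 1.96 to 17.2 and 2.33 to 39.7. These 3 were named after their values were seen. math-16 had 8 mutant counts and 0 wild-type counts, and btb-15 had 7 and 0. Taking 3 counts as the most that 0 allows in the wild-type group, they were at least 2.55-fold and 2.23-fold higher. These bounds take the mutant counts as exact, unlike the intervals given for math-14, math-15 and math-29. In the fit with no filter on low counts none of these other 4 was called. The edgeR adjusted p there was 0.299 for math-15, 0.231 for math-29, 0.405 for math-16 and 0.455 for btb-15. math-13 and math-17 had 3 mutant counts and 0 wild-type counts, math-2 and math-32 had 1 and 0, and math-19 had 0 and 1.

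**Figure D5:**
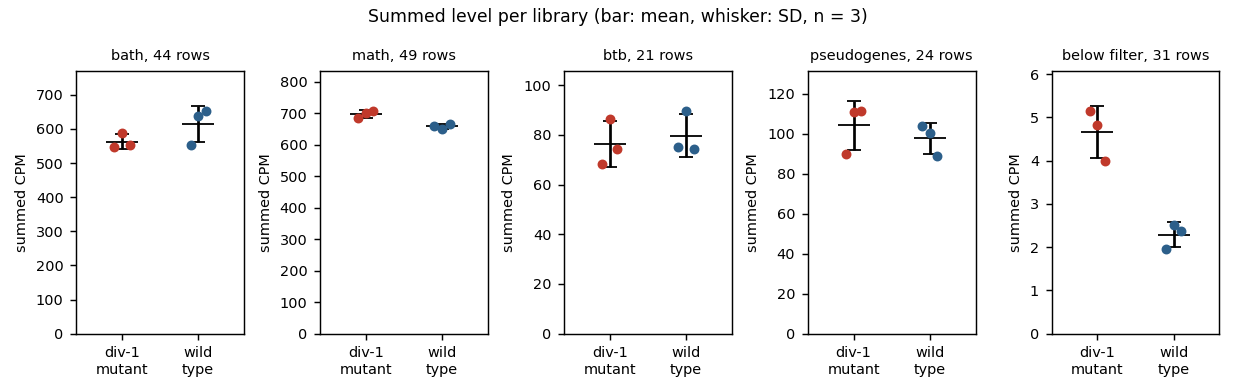
Summed CPM per library of the 44 bath, 49 math and 21 btb genes, of the 24 pseudogenes and of the 31 members below the expression filter, each on its own axis from 0. Points are libraries, bars the mean and whiskers the SD of 3 libraries. The groups are apart for math and for the members below the filter, where the mutant is at 4.66 ± 0.597 and the wild type at 2.29 ± 0.287.

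Of the 24 members annotated as pseudogenes 14 passed the filter, and math-27, math-35 and math-47 were above 10 CPM, with math-47 below math-33 and math-41 alone among the math genes at 27.0 CPM per kb. Log2 fold changes were above 0 for 10 of the 14 tested, with a median of 0.24. For all 618 annotated pseudogenes tested, the median was 0.29 and 73.9% were positive. Among 68 tested protein-coding members the median was 0.06, with 39 positive. The sum over the 24 pseudogenes was 89.96, 111 and 111 CPM in mutant larvae and 104, 100 and 88.8 in wild-type larvae, with overlapping groups.

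By position, the 69 tested members on chromosome II had a median of 0.17 in log2 fold change, and 45 were positive. They include bath-38 and bath-44, which lie in the centre of the chromosome and not on its arms. The median over all genes tested on the arms of that chromosome was 0.00, and 50.5% were positive. The 13 tested members on other chromosomes had a median of -0.05, with 4 positive. Their median level was 5.10 CPM, against 2.52 for the tested members on chromosome II. Signs differed between runs, although no member passed the test. The 3 btb genes tested in the run of btb-6 were all positive, as were bath-12, bath-13 and bath-18 and math-41, math-40 and math-39, while btb-16 to btb-18 and the run of math-42, math-35 and math-37 were all negative. Of these genes math-39, math-40, math-35 and math-37 changed sign in some alternatives. The other runs held both signs. In the longest run 19 of 25 tested members were positive, with a median of 0.20. In the run of math-38 3 of 4 were positive, in that of math-28 3 of 5 and in that of bath-28 2 of 6. A weakly expressed member can pass the filter through the mutant libraries alone or through the wild-type libraries alone. For such a member the filter itself favours the sign of the group that passed. These signs and medians therefore describe the members tested, not whole runs or chromosomes.

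The ligase that BATH and BTB proteins serve was measured too. The scaffold cul-3 was at 131, 88.9 and 93.7 CPM in mutant larvae and at 110, 101 and 133 in the wild type, -0.13 on the log2 scale (adjusted p = 0.846 by edgeR). rbx-1, the RING subunit that binds the ubiquitin-conjugating enzyme, had -0.06 (adjusted p = 0.919 by edgeR). mel-26 was at 96.8, 95.1 and 89.96 CPM against 89.6, 95.5 and 92.0, or 0.02 (adjusted p = 0.958 by edgeR). The groups overlapped for all 3 genes.

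None of the 15 genes for the CUL-3 core and for NEDD8 conjugation and its removal by the COP9 signalosome passed the threshold. All 15 had negative log2 fold changes, from -0.34 for csn-6 to -0.01 for ubc-12, with a median of -0.15 beside -0.03 for all genes. csn-6 was at 33.1, 30.7 and 32.4 CPM against 42.6, 37.4 and 42.01 (adjusted p = 0.356 by edgeR). The 8 genes of ubiquitin and its activating and conjugating enzymes also had 0 calls and 0 positive values, with a median of -0.11. Of 8 tested BTB or MATH genes with other names none passed and 2 were positive, with a median of -0.19, and of 3 known MEL-26 partners none passed and 1 was positive.

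Among 5 other cullins the nearest to the threshold was cul-6, singled out after its value was seen. CUL-6 is the cullin of a ligase that larvae induce in response to intracellular pathogens and proteotoxic stress. It was at 25.6, 22.01 and 22.5 CPM in mutant larvae and at 14.0, 13.1 and 14.8 in wild-type larvae, far apart against the spread within groups. The log2 fold change was 0.74 with an SE of 0.14 (adjusted p = 0.0596 by edgeR). It passed the threshold in 3 of 17 alternatives, and over all 17 the adjusted p lay between 0.000352 and 0.241. cul-1, cul-2, cul-4 and cul-5 had values from -0.20 to 0.03.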

How the data were processed

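The authors deposited raw counts per feature, as whole numbers, for 6 libraries. Per the submitters' processing notes the tools were TopHat2 2.1.0, DESeq2 1.8.1 and featureCounts 1.5.0. No source used here gives the genome build, the annotation or the strand setting. Per the labels' protocols a kit for small RNA and a selection of short inserts were used, so counts of near-identical family members are uncertain.

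Of 99774 rows, 53925 repeat copies and 13 construct parts were left out, which kept 45836 gene rows. In the main fit the 16289 gene rows that passed the filter set library sizes. Gene type, chromosome, gene order and exon length came from Ensembl WBcel235 by name, or by the locus tag of RefSeq's table, and no coordinates are given. Arms are the outer 30% at each end.

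The test was that of edgeR 4.0.16, run in R 4.3.3 (TMM, default filter by group, robust quasi-likelihood fit on group, two-sided, Benjamini-Hochberg adjustment over all 16289 genes, threshold 0.05), and the steps were tested on simulated data. CPM use effective library sizes, which are the library sizes after TMM scaling. Log2 fold changes are fitted values. Ratios of counts carry exact 95% intervals for counting error only, and 3 counts over a group bound a count of 0. Alternatives were other scalings and filters, a fit that was not robust, DESeq2 1.42.0, limma 3.58.1 (voom), a replicate block, repeat and construct rows in the library size, and each library left out.

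Named members are, per subfamily, the 4 highest and 4 lowest fold changes at a mean of at least 1 CPM, the 3 highest levels per length, members with counts in 1 group only, and math-33, bath-15 and bath-42. Others were named after their values were seen. The members and lists were chosen with earlier results of these data known.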

Additional observations from a re-analysis of the deposited data

How the results depend on the processing

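The count of 0 members called became 1 in both cases where it changed, math-14 (no filter on low counts) and btb-13 (DESeq2), and was 0 in the other 15 alternatives, including each library left out. Over all genes the count of 146 calls, 144 higher and 2 lower, became 306 with 303 higher without a filter, 556 with 541 higher and 15 lower by DESeq2, and 36 to 116 with a library left out, 34 to 113 higher. Leaving out div-1 mutant replicate 1 and wild-type replicate 3 together, chosen after seeing the data, gave 241, of which 233 were higher and 8 lower. The cause of these moves was not tested, apart from the genes or samples each alternative adds or removes. Libraries sharing a replicate number correlated at -0.220, 0.504 and -0.315 in their deviations. With 3 libraries per group these values cannot decide whether the numbers pair the libraries. The replicate block gave 52 calls, 50 higher. Near-zero values changed sign without any call. With upper-quartile factors and with library size only, bath-15 had a log2 fold change of 0.0066 and 0.041, bath-42 of 0.015 and 0.051 and math-33 of 0.034 and 0.071, and bath-44 had -0.0022 without a filter. With each library left out in turn, bath-10 lay between -0.72 and 0.073, bath-15 between -0.18 and 0.14, bath-42 between -0.12 and 0.020, bath-44 between -0.019 and 0.058, math-33 between -0.049 and 0.0030, math-35 between -0.20 and 0.027 and math-47 between -0.11 and 0.26. The median log2 fold change of btb genes was -0.12 and became 0.03 without a filter, 0.06 without wild-type replicate 3 and 0.01 with div-1 mutant replicate 1 left out. The share of each transcript that other genes hold was not run, since no transcript sequence was used here. The 31 members below the filter had too few counts for a test under that filter.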
